A study of Homo sapiens with 12 samples.

Results

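Glycolysis and lactate genes were followed in 3 non-small cell lung cancer (NSCLC) cell lines in which NRF2 is active because its inhibitor KEAP1 is mutated. The set held 33 genes of the 57815 in the files and was taken by gene symbol. It comprised 2 glucose transporters, 9 enzymes from glucose to the triose phosphates, 4 genes that set the fructose bisphosphate regulators (PFKFB2, PFKFB3, PFKFB4 and TIGAR), 6 enzymes from the triose phosphates to pyruvate, 4 lactate genes, 5 genes of pyruvate dehydrogenase and its kinases, and 3 genes of glycogen entry and gluconeogenesis. All 33 were found. The glucose-6-phosphate isomerase gene GPI is the member that the study listed among its NRF2 effectors. That list was made from these samples, so the direction of GPI below is not independent evidence.

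The human lines were A549 and H2023, both lung adenocarcinoma, and H460, a large cell carcinoma of the lung, and all were labelled positive for a KEAP1 mutation. Each received control siRNA or NRF2 siRNA and was collected at 48 h, which gave 6 groups of 2 libraries. The libraries of a group are numbered 0 and 1, and in the NRF2 siRNA groups library 0 received siRNA 28 and library 1 received siRNA 30, so the spread within such a group includes the difference between siRNAs. A549 was grown in high glucose DMEM and its RNA was depleted of ribosomal RNA, while H2023 and H460 were grown in low glucose DMEM and their RNA was selected for polyA. Medium, RNA preparation and line therefore cannot be told apart where A549 is set beside the others. Every value is given in the order library 0, library 1. Levels are FPKM, fragments counted per length of transcript and per size of the library, and fold changes are NRF2 siRNA minus control on the log2(FPKM + 1) scale with their standard error (SE), from limma, where a call means an adjusted p under 0.05 over all genes tested.

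Glycolysis turns glucose into pyruvate in the cytosol, and many tumour cells reduce most of that pyruvate to lactate even when oxygen is present. Hypoxia-inducible factor 1 and MYC are known activators of many genes of the pathway. NRF2 binds antioxidant response elements and is known mainly for detoxification genes and for the pentose phosphate enzymes, which branch from glycolysis at glucose 6-phosphate, the substrate of GPI.

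Promoter sequence was examined because NRF2 and hypoxia-inducible factor 1 recognise short elements. RefSeq promoters (GRCh38.p14, 250 bases before to 50 bases after the start) were found by symbol for 30 members, which have 60 promoters, and not for the other 3, SLC2A3, PFKFB2 and SLC16A1. The antioxidant response element core TGACNNNGC, searched on both strands, was in a promoter of 5 of the 30 members (16.7%), namely HK1, PFKL, ALDOC, GAPDH and PKM. It was in a promoter of 16.1% of all 27303 genes with a promoter. Counted by promoter it was in 8.33% of the members' promoters and in 13.3% of all. The hypoxia response element core ACGTG, again on both strands, was in a promoter of 20 of the 30 members (66.7%) against 24.9% of all genes, and in 40% of the members' promoters against 21.4% of all. A match is a run of letters and not a site of binding. The 250 bases before the start are printed for GPI, which the study followed, for GAPDH, where both cores overlap, and for the 2 promoters of HK2, the member with the largest fold change in a line. They matched GRCh37 exactly at 1 place each, chr19:34855647-34855896, chr12:6644180-6644429, chr2:75061004-75061253 and chr2:75062047-75062296, all on the plus strand. Capitals mark a match to either core.
GPI: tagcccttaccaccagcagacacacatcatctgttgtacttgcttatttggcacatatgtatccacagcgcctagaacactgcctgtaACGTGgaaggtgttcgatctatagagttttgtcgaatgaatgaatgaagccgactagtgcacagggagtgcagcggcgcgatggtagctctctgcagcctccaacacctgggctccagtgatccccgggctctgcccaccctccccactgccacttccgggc
GAPDH: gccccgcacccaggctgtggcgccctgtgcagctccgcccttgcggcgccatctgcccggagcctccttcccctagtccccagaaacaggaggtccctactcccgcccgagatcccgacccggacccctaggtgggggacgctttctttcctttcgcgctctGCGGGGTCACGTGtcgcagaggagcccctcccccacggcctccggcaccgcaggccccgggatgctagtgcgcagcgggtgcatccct
HK2, first: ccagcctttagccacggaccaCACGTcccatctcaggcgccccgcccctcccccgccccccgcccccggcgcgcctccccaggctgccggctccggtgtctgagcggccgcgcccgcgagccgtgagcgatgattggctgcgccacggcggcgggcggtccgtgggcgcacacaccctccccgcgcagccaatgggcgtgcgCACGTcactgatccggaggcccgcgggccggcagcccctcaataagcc
HK2, second: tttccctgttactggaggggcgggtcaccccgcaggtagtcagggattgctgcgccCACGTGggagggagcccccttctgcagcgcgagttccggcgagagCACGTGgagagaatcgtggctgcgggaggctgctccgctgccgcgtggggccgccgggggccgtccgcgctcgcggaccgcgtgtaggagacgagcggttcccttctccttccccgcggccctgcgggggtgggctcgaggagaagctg
In GPI the capitals are a single hypoxia core, 162 to 158 bases before the start. In GAPDH the antioxidant core lies on the minus strand 88 to 80 bases before the start and overlaps hypoxia cores on both strands, which together span 81 to 76 bases before it. Both HK2 promoters hold hypoxia cores only.

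The knockdown was checked first. NFE2L2, which encodes NRF2, was at 38.2 and 30.9 FPKM with control siRNA and 5.31 and 7.84 FPKM with NRF2 siRNA in A549, at 120 and 118 against 7.74 and 6.80 FPKM in H2023, and at 144 and 99.5 against 6.54 and 12.2 FPKM in H460. Its targets NQO1, GCLM and TXNRD1 were called lower in every line, with log2 fold changes from -4.01 to -1.95. Relative depth within a line, from the value that 1 read takes in the low genes, was 92.6% to 107.4% of the first control library. The epithelial keratin genes KRT8 and KRT18 were expressed in all lines and, like KRT7, were called higher in the average over lines, while the lung markers NKX2-1, NAPSA, SFTPB and SFTPC together reached at most 1.41 FPKM in any library, and CDH1 was at most 1.17 FPKM in H460. CDH1, the epithelial cadherin, rose in H2023 from 12.6 and 8.05 to 65.0 and 58.3 FPKM (5.64-fold, SE 0.24 on the log2 scale, adjusted p = 0.0280), and the 6 epithelial markers summed there to 2810 to 3386 FPKM with control siRNA and 6012 to 6336 FPKM with NRF2 siRNA. COL1A1, a collagen gene of fibroblasts, rose in H460 from 1.81 and 2.06 to 5.94 and 5.81 FPKM (1.23 ± 0.26, adjusted p = 0.0329). Summed fibroblast markers reached at most 7.61 FPKM and endothelial markers at most 0.14 FPKM in any library, and of 3 leukocyte markers only CD68 was above 1 FPKM. The part of these markers in the members' values was not tested. Mitochondrially encoded transcripts took 0.892% to 1.56% of the FPKM in A549. In H460 they took 8.56% and 13.1% with control siRNA and 20.8% and 26.0% with NRF2 siRNA, and in H2023 they took 12% and 18.1% with control siRNA and 17.3% and 22.8% with NRF2 siRNA. FPKM is a share of the whole library, so values are also given with those transcripts left out: in H460 the median over the whole transcriptome then moved from -0.01 to 0.19 on the log2 scale, and 4.16% of genes were called lower and 10.2% higher in place of 6.86% and 7.12%.

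With control siRNA the members ranged from near 0 to 5008 FPKM. GAPDH was the highest member in each line, at 4152 and 4207 FPKM in A549, 4020 and 3673 FPKM in H2023 and 5008 and 4757 FPKM in H460. ALDOA, ENO1, PKM and LDHA also exceeded 800 FPKM in every control library, and GPI lay between 277 and 476 FPKM. The mean of the control libraries was over 100 FPKM for 11 members in A549, 12 in H2023 and 15 in H460.

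The lines differed in which paralog they expressed. HK2, an inducible hexokinase, was at 37.8 and 18.9 FPKM in H460 and under 1 FPKM in every A549 and H2023 library. HK1, the hexokinase of most tissues, was at 163 and 149 FPKM in H2023 and 83.4 and 97.3 FPKM in H460, which were grown and prepared alike. SLC16A3, which exports lactate, was at 118 and 79.6 FPKM in H2023 and 176 and 194 FPKM in H460, against 3.69 and 2.39 FPKM in A549. PDK2, a kinase that turns pyruvate dehydrogenase off, was lowest in H460, at 1.58 and 2.44 FPKM, against 22.5 and 27.6 FPKM in H2023. FBP1, the gluconeogenic fructose bisphosphatase, reached at most 0.712 FPKM in any of the 12 libraries, was tested in no line and is not mentioned again.

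**Figure D1:**
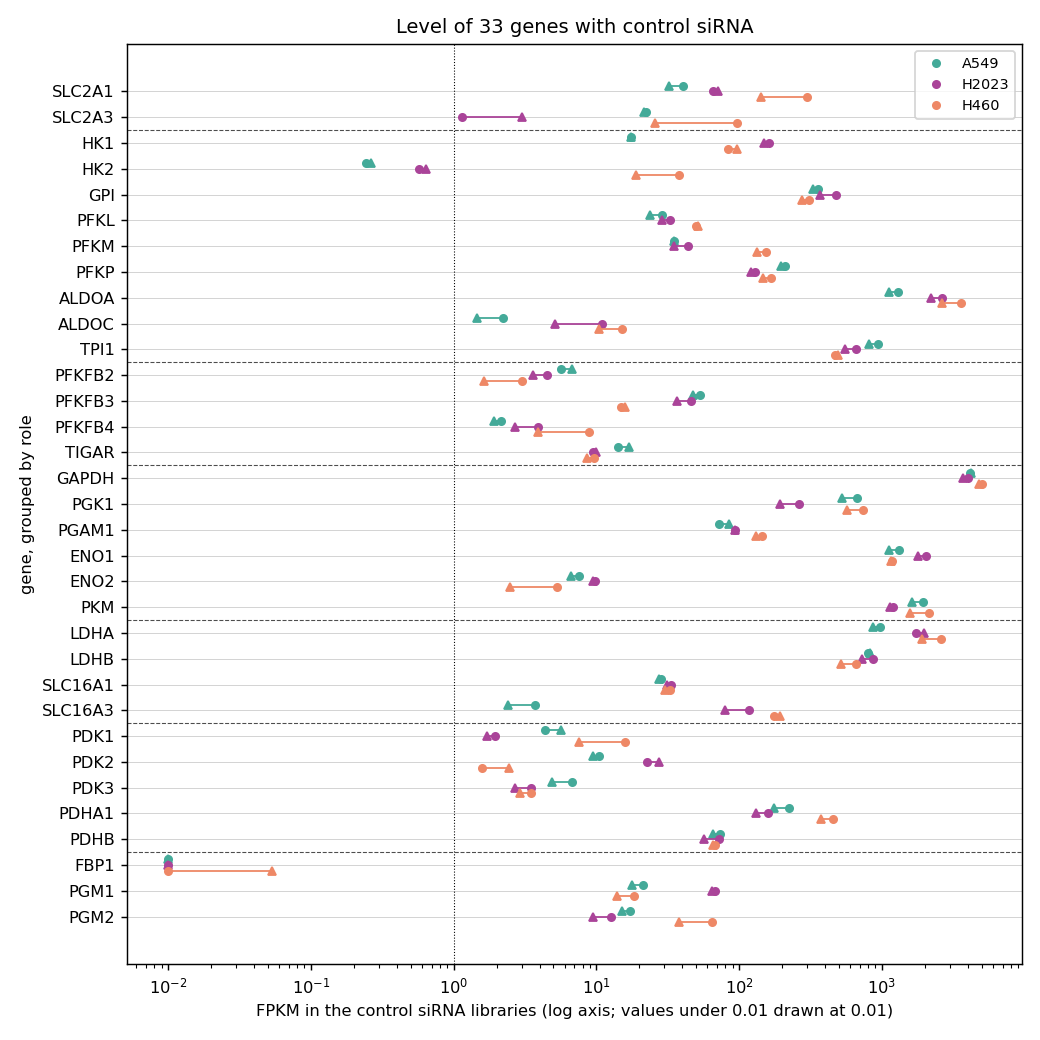
FPKM of the 33 genes in the control siRNA libraries of A549, H2023 and H460 on a log axis. Circles are library 0 and triangles library 1, dashed lines separate the roles in the order given in the text, and the dotted line is 1 FPKM. HK2 sits below 1 FPKM in A549 and H2023 and at 18.9 and 37.8 FPKM in H460, and GAPDH is the highest member in each line.

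The main comparison asked which members change when NRF2 is lowered. In A549, 31 members were tested and none was called, while 4 had an unadjusted limma p under 0.05 with a lower value and 2 with a higher value. Of all 13898 genes tested in A549, 0.554% were called lower and 0.122% higher, and 13.3% had an unadjusted p under 0.05. In H2023, none of 31 members was called either, with 6 lower and 3 higher at an unadjusted p under 0.05, where 0.583% of 14059 genes were called lower and 0.327% higher and 16.9% had an unadjusted p under 0.05. Of 32 members tested in H460, 3 were called lower (PFKP, GPI and HK2, 9.38%) and 1 was called higher (PDK2, 3.12%), beside 6.86% and 7.12% of all 13446 genes. The members' share called in H460 was thus near that of all genes. All 4 calls were lost without control library 0 or without control library 1 of H460, where 0 and 5 genes passed in all.

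The members tested had a median log2 fold change that was -0.08 for A549, -0.18 for H2023 and -0.52 for H460, beside 0.02, 0.02 and -0.01 over the whole transcriptome. Without mitochondrial transcripts the H460 median of the members was -0.30 and that of all genes 0.19. The H2023 median was -0.09 without them, beside 0.10 for all genes, and that of A549 stayed at -0.08. With 1 library left out, the A549 median was 0.03 without control library 0 and 0.05 without the siRNA 30 library, that of H2023 was -0.04 without control library 0 and -0.02 without the siRNA 30 library, and that of H460 was -0.14 without control library 0 and -0.34 without the siRNA 30 library. Both NRF2 siRNA libraries lay below both control libraries for 10 of 31 members in A549 (32.3%, beside 20.5% of all genes tested there), for 11 of 31 in H2023 (35.5% beside 22%) and for 16 of 32 in H460 (50% beside 31.6%). They lay above both for 9 members in A549 (29% beside 25.2% of all genes), 7 in H2023 (22.6% beside 27%) and 4 in H460 (12.5% beside 31.1%).

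**Figure D2:**
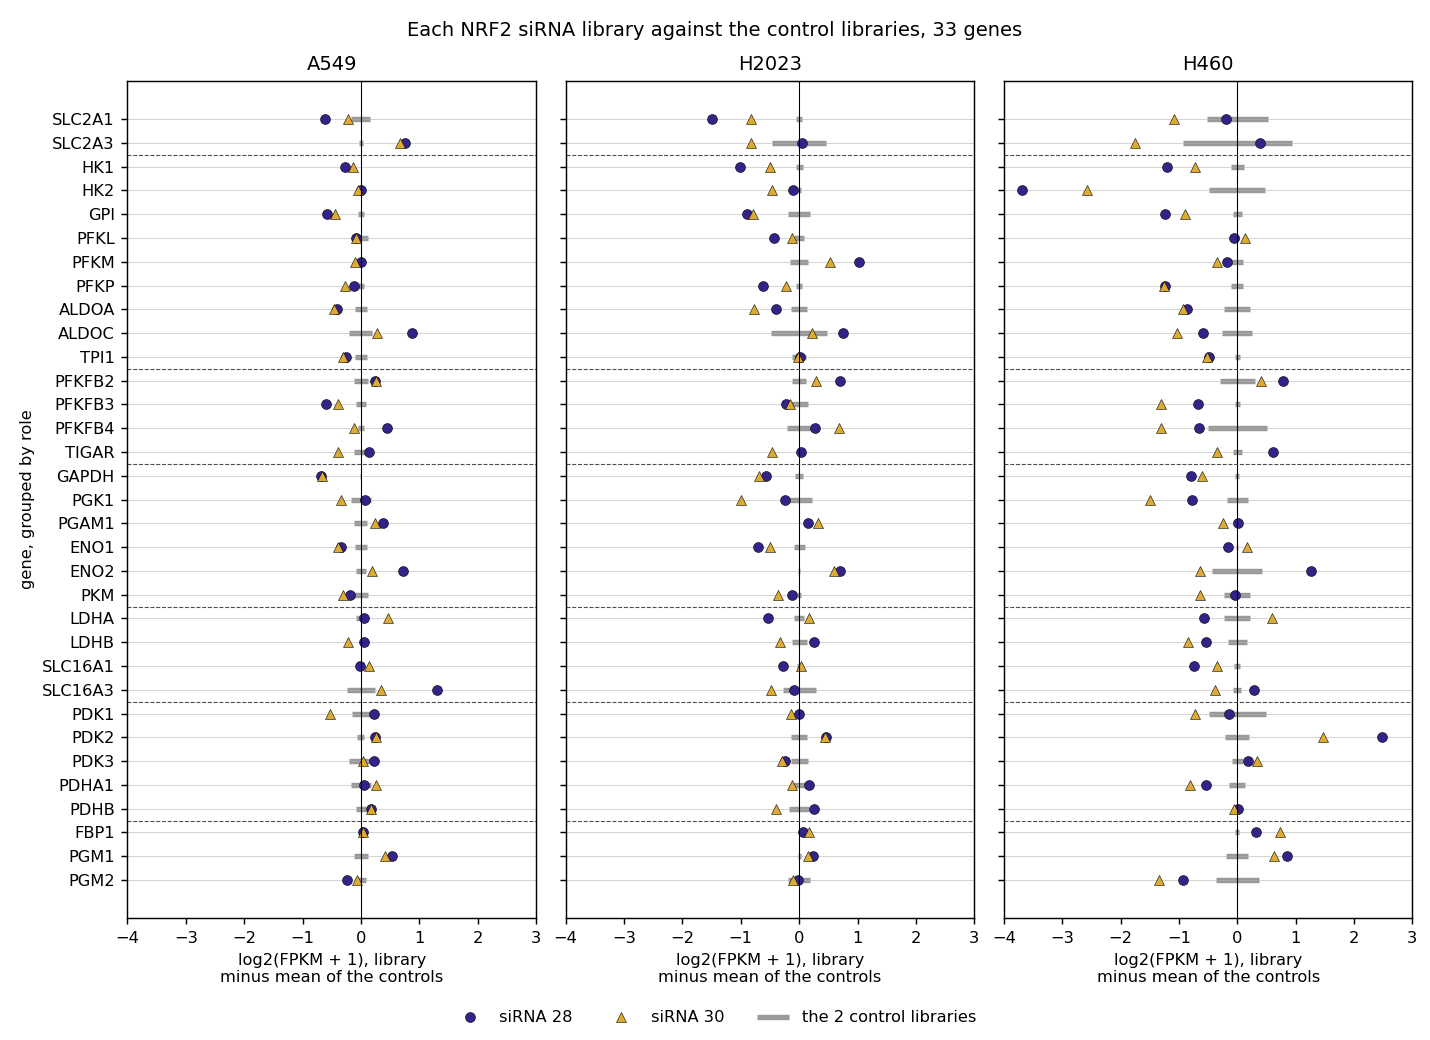
Difference of each NRF2 siRNA library from the mean of the control libraries on the log2(FPKM + 1) scale, for 33 genes in 3 lines. Circles are siRNA 28, triangles siRNA 30, and grey bars span the 2 control libraries. HK2 in H460 lies farthest to the left, at -3.69 with siRNA 28 and -2.57 with siRNA 30, and PDK2 in H460 farthest to the right, at 2.48 and 1.47.

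The glucose transporters did not pass the test in the main fit of any line. SLC2A1 (GLUT1, the basal glucose carrier, ENSG00000117394.15, chromosome 1, 43391024 to 43424564, minus strand, GRCh37) was at 65.5 and 70.8 FPKM with control siRNA and 23.6 and 37.9 FPKM with NRF2 siRNA in H2023, with no overlap of the groups (log2 fold change -1.16 ± 0.25, adjusted p = 0.128). The H2023 value was -0.83 without the siRNA 28 library and -1.49 without the siRNA 30 library. With the library number as a block, SLC2A1 was called in H2023 (adjusted p = 0.0279), where 711 of 14059 genes passed beside 128 in the main fit. In A549 SLC2A1 was at 40.3 and 32.0 against 23.1 and 30.6 FPKM (-0.42 ± 0.20). In H460 the groups overlapped, at 297 and 143 against 179 and 97.0 FPKM (-0.64 ± 0.44). SLC2A3 (GLUT3, a carrier with high affinity) had the opposite order in A549, at 22.3 and 21.4 against 37.7 and 35.4 FPKM (0.72 ± 0.13, adjusted p = 0.123), and overlapped between groups in the other lines.

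GPI converts glucose 6-phosphate to fructose 6-phosphate. The gene (ENSG00000105220.10) spans chromosome 19, 34850385 to 34893318, on the plus strand of GRCh37. In A549 it was at 354 and 327 FPKM with control siRNA and 228 and 250 FPKM with NRF2 siRNA, or 341 ± 19.1 against 239 ± 15.3 FPKM (SD, n = 2 each). The H2023 libraries were at 476 and 366 against 226 and 242 FPKM, or 421 ± 77.8 against 234 ± 11.7 FPKM. The H460 libraries were at 310 and 277 against 123 and 158 FPKM, or 293 ± 23.4 against 141 ± 24.5 FPKM. All 6 NRF2 siRNA libraries were thus below all control libraries of their line, and with either siRNA.

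The log2 fold change of GPI was -0.51 ± 0.14 in A549 (1.43-fold lower, adjusted p = 0.242), -0.84 ± 0.19 in H2023 (1.78-fold lower, adjusted p = 0.135) and -1.07 ± 0.24 in H460 (2.09-fold lower, adjusted p = 0.0365). In the main fit of each line it was called in H460 and not in the other lines. Without mitochondrial transcripts the H460 value was -0.85 ± 0.25 with an adjusted p of 0.0643, and without control library 0 or 1 of H460 the adjusted p was at least 0.187, where few or no genes at all passed. In a fit of all 12 libraries, which shares 1 estimate of the spread, GPI was also called in H2023 (adjusted p = 0.0259). There 748 of 14059 genes passed, beside 128 in the main fit. With the library number as a block it was called in H2023 too (adjusted p = 0.0429), where 711 genes passed. Without the siRNA 30 library its H2023 value was -0.89.

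The hexokinases trap glucose in the cell as glucose 6-phosphate. HK2 (ENSG00000159399.5, chromosome 2, 75061254 to 75120486, plus strand) fell in H460 from 37.8 and 18.9 FPKM to 1.16 and 3.67 FPKM, a log2 fold change of -3.13 ± 0.48 (8.75-fold on this scale, adjusted p = 0.0195), and without mitochondrial transcripts it was -3.02 ± 0.50 (adjusted p = 0.0209). The control libraries themselves differed by more than a factor of 1.5. With any 1 library left out its log2 fold change lay between -3.69 and -2.57, and the adjusted p was 0.146 without control library 0 and 0.0798 without control library 1. HK1 (chromosome 10, 71029740 to 71161640) was at 17.5 and 17.6 against 14.3 and 15.9 FPKM in A549, 163 and 149 against 76.4 and 109 FPKM in H2023, and 83.4 and 97.3 against 38.5 and 54.2 FPKM in H460. Its groups overlapped in no line, and its log2 fold changes were -0.21 ± 0.14, -0.76 ± 0.21 and -0.96 ± 0.25, of which the last had an adjusted p of 0.0517.

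Phosphofructokinase commits sugar to glycolysis and has the subunits PFKL, PFKM and PFKP. PFKP (the platelet type, ENSG00000067057.12, chromosome 10, 3108525 to 3179910, plus strand) fell in H460 from 168 and 146 FPKM to 65.8 and 64.8 FPKM (-1.25 ± 0.21, 2.38-fold, adjusted p = 0.0219), and its value without mitochondrial transcripts was -1.04 ± 0.20 (adjusted p = 0.0280). Both siRNAs gave nearly the same level there. The adjusted p was 0.208 without control library 0 and 0.142 without control library 1. In H2023 it was at 130 and 121 against 81.8 and 107 FPKM (-0.42 ± 0.19) and in A549 at 210 and 195 against 186 and 168 FPKM (-0.20 ± 0.14). PFKM, the muscle type, was higher in both NRF2 siRNA libraries of H2023 alone among the lines, at 80.4 and 56.8 FPKM against 43.8 and 35.1 FPKM (0.77 ± 0.23, adjusted p = 0.203). PFKL, the liver type, had log2 fold changes from -0.28 to 0.03.

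The aldolases and triose phosphate isomerase complete the upper part. ALDOA, the main aldolase, was at 1293 and 1123 against 904 and 873 FPKM in A549, at 2658 and 2196 against 1826 and 1411 FPKM in H2023 and at 3590 and 2645 against 1693 and 1612 FPKM in H460. It was lower in all 6 NRF2 siRNA libraries, with log2 fold changes of -0.44 ± 0.16, -0.59 ± 0.22 and -0.90 ± 0.33, none of them called. TPI1 had log2 fold changes of -0.28, -0.01 and -0.50, and ALDOC, a minor aldolase here at 15.2 FPKM or less, of 0.58, 0.49 and -0.81. Across the upper enzymes the median log2 fold change was -0.20 for A549, -0.35 for H2023 and -0.90 for H460.

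**Figure D3:**
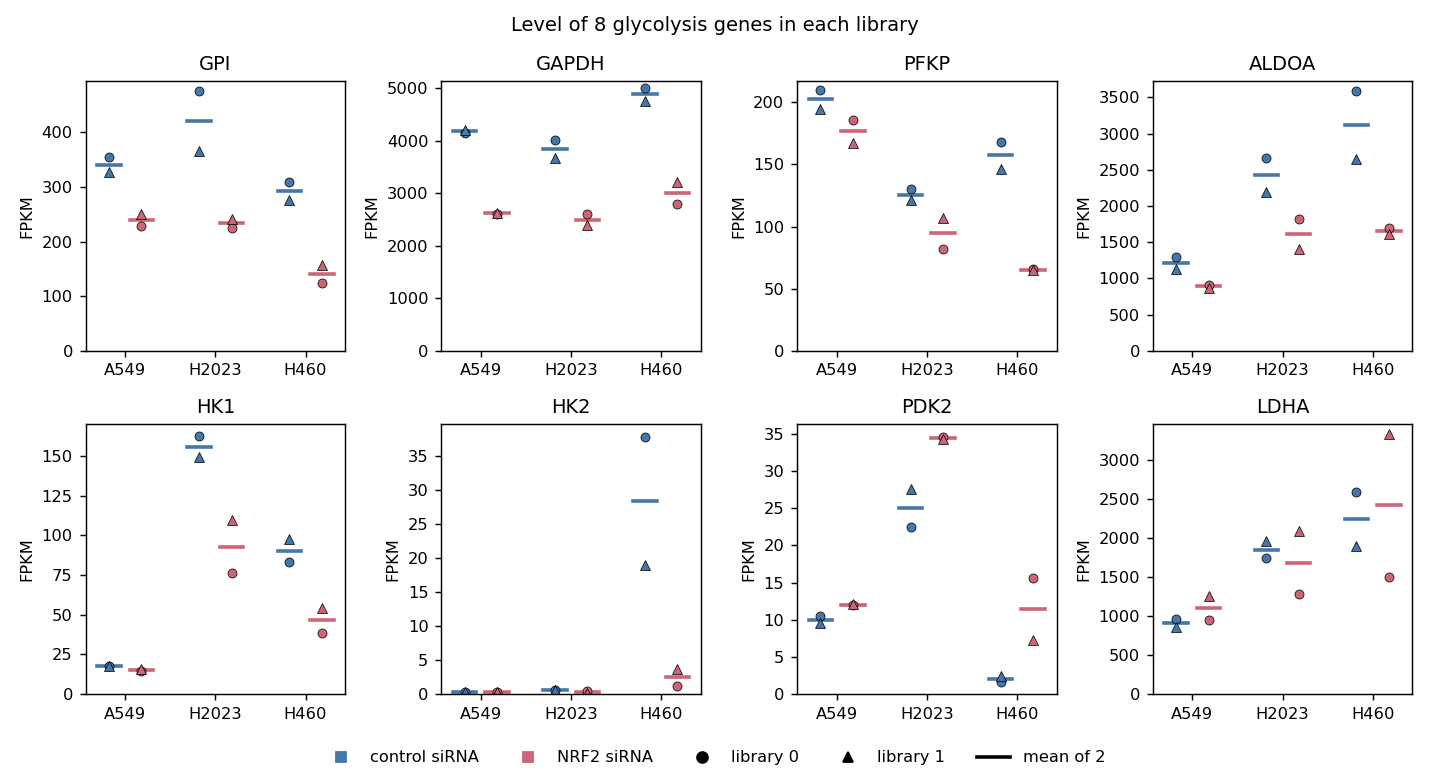
FPKM of 8 members in each library, with a separate linear axis from 0 for each gene. Blue marks are control siRNA, red marks NRF2 siRNA, circles library 0, triangles library 1 (siRNA 28 and siRNA 30 in the NRF2 groups), and lines the mean of 2. GPI, GAPDH, PFKP, ALDOA and HK1 are lower in both NRF2 siRNA libraries of every line, PDK2 is higher in every line, and LDHA differs more between the siRNAs than between the groups.

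The PFKFB enzymes make and remove fructose 2,6-bisphosphate, which activates phosphofructokinase, and TIGAR removes it. PFKFB3, the form with the strongest kinase, was at 53.2 and 47.2 against 32.7 and 37.8 FPKM in A549, 45.7 and 36.5 against 34.7 and 36.6 FPKM in H2023 and 14.9 and 15.8 against 9.24 and 5.59 FPKM in H460. The groups were apart in A549 and H460, with log2 fold changes of -0.50 ± 0.15 and -0.99 ± 0.30 (adjusted p = 0.264 and 0.0732). PFKFB2 was higher with NRF2 siRNA in each line, at 5.64 and 6.79 against 7.50 and 7.60 FPKM in A549, 4.48 and 3.61 against 7.17 and 5.17 FPKM in H2023 and 3.00 and 1.63 against 4.59 and 3.29 FPKM in H460. These values gave log2 fold changes of 0.25, 0.50 and 0.60, none of them called. PFKFB4 was between 1.79 and 8.83 FPKM and TIGAR between 6.72 and 17.2 FPKM over all libraries. Neither was called in the main fit of any line.

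GAPDH carries the oxidation step of glycolysis and is widely used as a reference transcript, also in the study's RT-PCR. The gene (ENSG00000111640.10) lies on chromosome 12, 6643678 to 6647540, on the plus strand. It was at 4152 and 4207 FPKM with control siRNA and 2610 and 2631 FPKM with NRF2 siRNA in A549, 4020 and 3673 against 2603 and 2394 FPKM in H2023, and 5008 and 4757 against 2803 and 3210 FPKM in H460. The groups were apart in every line. The log2 fold changes were -0.67 ± 0.18, -0.62 ± 0.19 and -0.70 ± 0.35 and none was called in a single line (adjusted p = 0.234, 0.217 and 0.211). Its 64 processed pseudogenes in the files summed to at most 0.802% of the FPKM of GAPDH.

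ACTB, another of the study's reference transcripts, stood beside it at 1937 and 1623 FPKM with control siRNA and 1728 and 1722 FPKM with NRF2 siRNA in A549 (-0.04 ± 0.18), with log2 fold changes of 0.06 ± 0.19 in H2023 and -0.77 ± 0.35 in H460. The ratio of GAPDH to ACTB was 2.14 and 2.59 with control siRNA and 1.51 and 1.53 with NRF2 siRNA in A549, 1.49 and 1.30 against 0.902 and 0.836 in H2023, and 1.05 and 1.34 against 1.09 and 1.42 in H460. This ratio does not depend on the scaling between libraries, and it was lower with NRF2 siRNA in A549 and H2023 and overlapped between groups in H460.

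Of the other enzymes down to pyruvate, PGK1, which makes ATP, was at 732 and 571 against 377 and 230 FPKM in H460 (-1.13 ± 0.32, adjusted p = 0.0620) and at 263 and 194 against 191 and 113 FPKM in H2023 (-0.62 ± 0.30). In A549 its groups overlapped, at 665 and 528 against 621 and 468 FPKM. ENO1, the main enolase, was at 1310 and 1128 against 960 and 930 FPKM in A549 (-0.36 ± 0.16) and 2040 and 1791 against 1178 and 1347 FPKM in H2023 (-0.60 ± 0.19). In H460 it did not separate, at 1177 and 1151 against 1038 and 1307 FPKM. ENO2, the neuronal enolase, was higher with NRF2 siRNA in A549 and H2023 (0.46 ± 0.22 and 0.65 ± 0.18) and never took more than 1.38% of the 2 enolases. PGAM1 had log2 fold changes between -0.12 and 0.31 and PKM, pyruvate kinase, between -0.34 and -0.24.

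Lactate genes had no call in the main fit of any line. LDHA, which reduces pyruvate to lactate, was at 966 and 865 against 949 and 1260 FPKM in A549, 1745 and 1960 against 1284 and 2087 FPKM in H2023, and 2593 and 1899 against 1501 and 3337 FPKM in H460. The groups overlapped in all lines, and siRNA 30 gave the higher value in each. LDHB, whose enzyme favours the reverse reaction, was at 654 and 521 against 403 and 324 FPKM in H460 (-0.69 ± 0.26, adjusted p = 0.121) and overlapped in A549 and H2023. The lactate carrier SLC16A1 had log2 fold changes of 0.05, -0.13 and -0.54, and SLC16A3 of 0.83, -0.28 and -0.05.

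PDK2 phosphorylates pyruvate dehydrogenase and so holds pyruvate out of the mitochondrial cycle. The gene (ENSG00000005882.7, chromosome 17, 48172101 to 48189516, plus strand) rose in H460 from 1.58 and 2.44 FPKM to 15.6 and 7.26 FPKM, a log2 fold change of 1.98 ± 0.40 (3.94-fold, adjusted p = 0.0307), and 2.22 ± 0.40 without mitochondrial transcripts (adjusted p = 0.0240). The adjusted p was 0.212 without control library 0 and 0.138 without control library 1. PDK2 was at 22.5 and 27.6 against 34.7 and 34.4 FPKM in H2023 (0.45 ± 0.18) and at 10.4 and 9.51 against 11.9 and 12.1 FPKM in A549 (0.25 ± 0.14), so that all 6 NRF2 siRNA libraries were above their controls. PDK1, the kinase known for its response to hypoxia, overlapped between groups in all lines. PDHA1, the catalytic subunit, was at 456 and 377 against 285 and 235 FPKM in H460 (-0.68 ± 0.24, adjusted p = 0.109), while PDHB was within 0.17 of 0 on the log2 scale in each line.

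The phosphoglucomutases connect glucose phosphates with glycogen and nucleotide sugars. PGM1 was at 21.1 and 17.6 against 28.3 and 25.9 FPKM in A549, 67.4 and 65.0 against 78.1 and 73.5 FPKM in H2023 and 18.4 and 14.0 against 29.6 and 25.2 FPKM in H460. It was higher in all 6 NRF2 siRNA libraries, with log2 fold changes of 0.47 ± 0.15, 0.19 ± 0.15 and 0.73 ± 0.25. The last was called without mitochondrial transcripts (0.95 ± 0.24, adjusted p = 0.0462). PGM2 was at 64.6 and 38.1 against 25.4 and 19.1 FPKM in H460 (-1.14 ± 0.31, adjusted p = 0.0603) and overlapped in the other lines.

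The average of the 3 within-line effects, tested in a fit of all 12 libraries, had 13 of 31 members past the threshold. Members called lower were 10, or 32.3%, beside 14.5% of all 11571 genes tested, and 3 were called higher, or 9.68%, beside 15.2%. GPI fell by 0.80 ± 0.10 on the log2 scale (1.75-fold, adjusted p = 0.000623), GAPDH by 0.67 ± 0.10 (adjusted p = 0.00140) and PFKP by 0.62 ± 0.09 (adjusted p = 0.00136). HK1 and ALDOA each had an average of -0.64 ± 0.12 (adjusted p = 0.00370 and 0.00394). The averages of the others called lower were -0.74 ± 0.22 for SLC2A1, -0.63 ± 0.18 for PGK1, -0.56 ± 0.12 for PFKFB3, -0.45 ± 0.15 for PGM2 and -0.32 ± 0.10 for ENO1. The members called higher were PDK2 (0.89 ± 0.17, adjusted p = 0.00357), PGM1 (0.46 ± 0.10, adjusted p = 0.00746) and PFKFB2 (0.45 ± 0.15, adjusted p = 0.0412).

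Without mitochondrial transcripts the average called 8 members lower, ENO1 and PGM2 no longer among them, beside 9.51% of all genes, and 3 higher beside 20.2%. The median of all genes moved from -0.01 to 0.08 and that of the members from -0.17 to -0.07. GPI was then at -0.70 ± 0.11 and GAPDH at -0.56 ± 0.10. The fit pools spreads that differ: on the log2 scale the median SD between libraries of a group was 0.160 for A549, 0.212 for H2023 and 0.253 for H460 when taken across all genes. GPI, GAPDH, PFKP, HK1, ALDOA, PFKFB3, PDK2 and PGM1 kept their call under all 20 alternatives run, while ENO1 lost it in 13, PGM2 in 11, PFKFB2 in 10, SLC2A1 in 8 and PGK1 in 6. Most of these losses came with 1 library left out, A549 control library 0 among them for each of the 5. The highest adjusted p were 0.159 for ENO1, 0.124 for PGM2, 0.111 for PFKFB2 and PGK1 and 0.127 for SLC2A1.

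**Figure D4:**
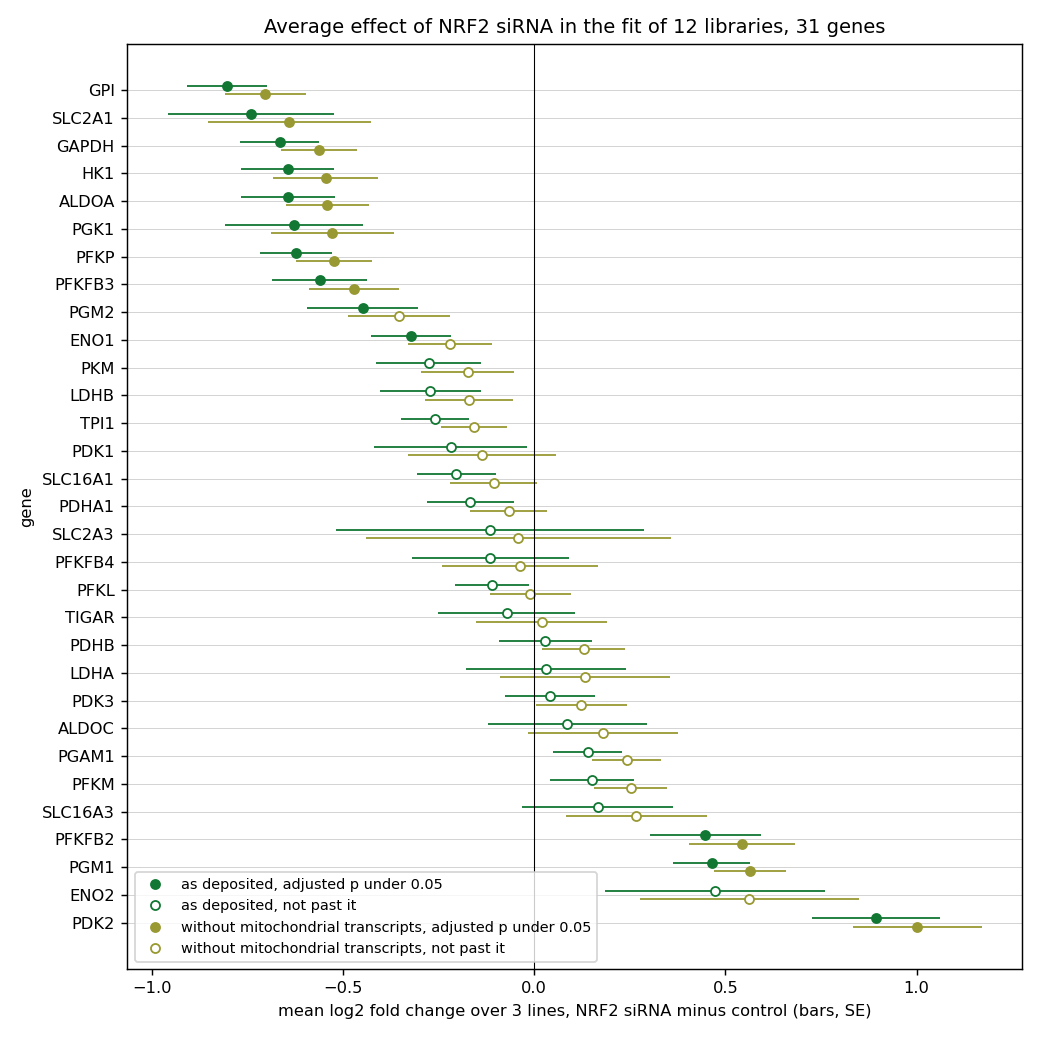
Mean log2 fold change over the 3 lines for the 31 members tested, with SE, from values as deposited (dark green) and with mitochondrial transcripts left out (olive). Filled points have an adjusted p under 0.05. GPI is lowest at -0.80 and PDK2 highest at 0.89. ENO1 and PGM2 have filled points as deposited and open points without mitochondrial transcripts.

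The members ALDOA, GAPDH, GPI, HK1 and PFKP, had both NRF2 siRNA libraries below both control libraries in all 3 lines. That was 5 of 31, or 16.1%, beside 7.2% of the 11571 genes. In the other direction PDK2, PFKFB2 and PGM1 were above in all 3 lines, 3 of 31 or 9.68%, beside 8.18%. In bulk RNA, fewer cells that express a gene and less RNA per cell cannot be told apart.

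Whether the lines responded differently was tested in the same fit. Of 31 members, none passed the test over all 3 lines, where 2.51% of genes did, and 7 had an unadjusted limma p under 0.05, beside 21.2% of all genes. The smallest adjusted p were 0.0627 for PFKP and 0.0689 for PDK2. For single pairs of lines, PFKP passed between A549 and H460, with an effect 1.06 ± 0.23 higher in A549 on the log2 scale (adjusted p = 0.0440), where 3.13% of genes passed, and not without mitochondrial transcripts (adjusted p = 0.0826). PDK2 had an effect 1.73 ± 0.41 lower in A549 than in H460 (adjusted p = 0.0511). For GPI the effects differed by 0.55 ± 0.26 between A549 and H460 (adjusted p = 0.233), by 0.32 ± 0.26 between A549 and H2023 and by 0.23 ± 0.26 between H2023 and H460. HK2 could not enter, since it was under 1 FPKM in the other lines.

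To compare siRNA 28 with siRNA 30, the 6 knockdown libraries were fitted with the line as a covariate. No member of 32 passed, and 0% of all 15716 genes did. At an unadjusted limma p under 0.05 there were 7 members higher with siRNA 28 and 2 lower, beside 18.2% of all genes. LDHA was 0.75 ± 0.21 lower with siRNA 28 than with siRNA 30 on the log2 scale (adjusted p = 0.184), and in H2023 and H460 the siRNAs gave it opposite signs against the control, as they did SLC2A3, PDHB and TIGAR. TIGAR was 0.66 ± 0.17 higher with siRNA 28 (adjusted p = 0.169) and PGK1 0.62 ± 0.14 higher (adjusted p = 0.151). In the fit of all 12 libraries LDHA and TIGAR passed (adjusted p = 0.0487 and 0.0308), as did 1449 of all 15716 genes. GPI differed by -0.20 ± 0.13 between the siRNAs (adjusted p = 0.459). In H460 the median difference of the 33 members from the controls was -0.20 with siRNA 28 and -0.63 with siRNA 30.

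Shares among paralogs were examined because they do not depend on how libraries are scaled to each other. In H460 the share of HK2 in the summed FPKM of HK1 and HK2 was 31.2% and 16.3% with control siRNA and 2.93% and 6.35% with NRF2 siRNA. The share of PFKP among the phosphofructokinase genes was 45.2% and 44.1% against 27.3% and 27.8% in H460 and 63.0% and 65.5% against 44.3% and 55.9% in H2023. In A549 it stayed near its controls, at 76.8% and 76.8% against 75.7% and 74.5%. PDK2 made up 7.55% and 18.9% of PDK1, PDK2 and PDK3 with control siRNA in H460 and 53.4% and 40.7% with NRF2 siRNA. PDK4 lies outside the set and this sum, and was at 26.6 and 10.2 against 122 and 129 FPKM in H460. It was above PDK2 in every H460 library, so the share is not one of all the kinases. The share of SLC2A3 in the 2 glucose carriers was 35.6% and 40.1% against 62.0% and 53.7% in A549. LDHB took 21.2% of the lactate dehydrogenases with siRNA 28 and 8.84% with siRNA 30 in H460, against 20.2% and 21.5% in the controls.

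The ratio of GPI to GAPDH was taken to set GPI beside another gene of the pathway. It was 0.0853 and 0.0777 with control siRNA and 0.0873 and 0.0948 with NRF2 siRNA in A549, 0.119 and 0.0997 against 0.0866 and 0.101 in H2023, and 0.0619 and 0.0582 against 0.0439 and 0.0492 in H460. GPI was thus lower relative to GAPDH in H460 alone, the groups overlapped in H2023, and in A549 the ratio was higher with NRF2 siRNA. GAPDH was itself called lower in the average effect, and with ACTB as the denominator the groups separated in other lines. The ratio of GPI to ACTB was 0.183 and 0.202 against 0.132 and 0.145 in A549, 0.176 and 0.130 against 0.0782 and 0.0845 in H2023, and 0.0649 and 0.0783 against 0.0481 and 0.0697 in H460. It was lower with NRF2 siRNA in A549 and H2023, and the groups overlapped in H460. The 15 enzymes from glucose to pyruvate summed to 11037 and 10121 FPKM against 8001 and 7642 FPKM in A549, 11790 and 10350 against 8091 and 7447 FPKM in H2023, and 14086 and 12060 against 8604 and 8450 FPKM in H460. As a share of all FPKM outside the mitochondrial genes this was 2.07% and 1.96% against 1.57% and 1.37% in H460.

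**Figure D5:**
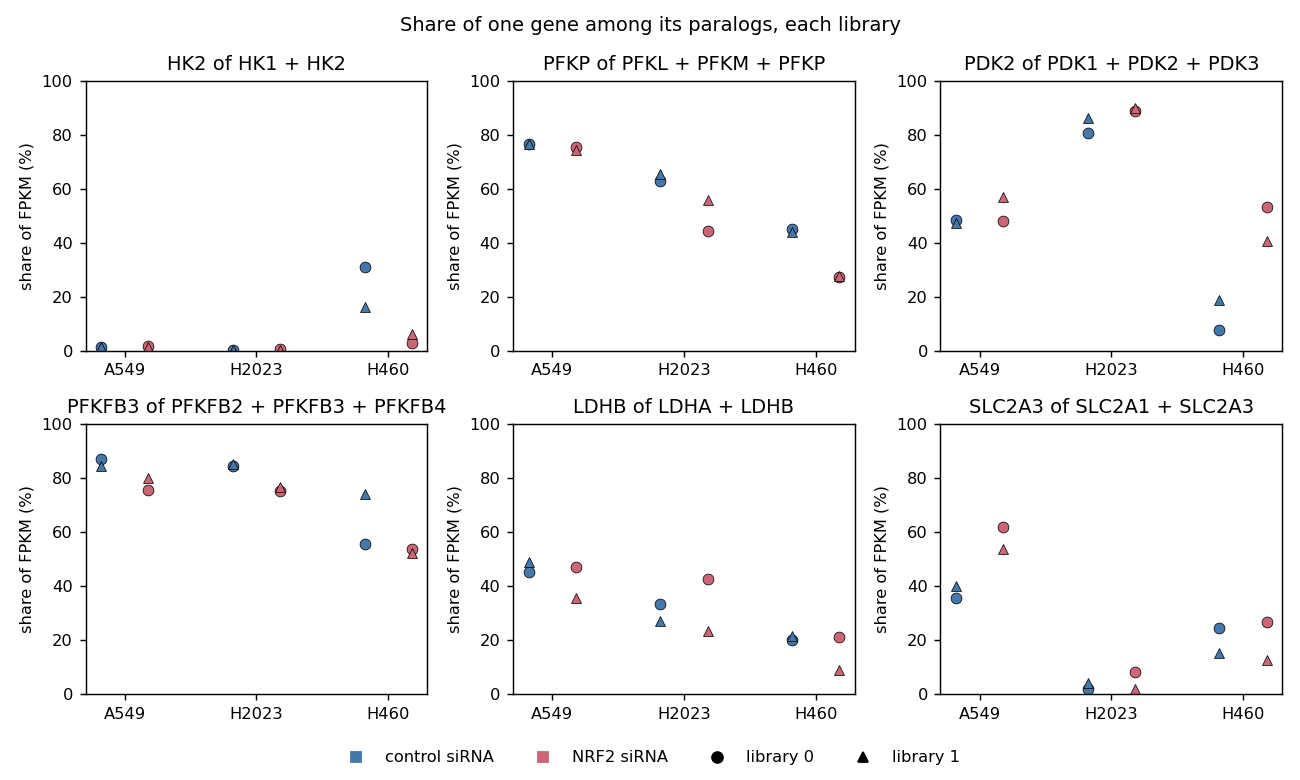
Share of 1 gene in the summed FPKM of the paralogs named above each panel, in percent, for 6 families in each library. HKDC1 and PDK4 are not in the sums. Blue is control siRNA, red NRF2 siRNA, circles library 0 and triangles library 1. The shares of HK2 and PFKP in H460 are lower in both NRF2 siRNA libraries than in both controls, that of PDK2 in H460 is higher, and that of LDHB separates the siRNAs in H460, at 21.2% and 8.84%.

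Other genes of the pathway were 43 by a list of isozymes, carriers and regulators outside the set. They had no call in A549 or H2023, where 28 and 29 were tested. In H460, 2 of 28 were called lower and 3 higher, beside 6.86% and 7.12% of all genes. Their median log2 fold changes were 0.01, 0.03 and 0.17. In the average over lines 3 of 28 were called lower (GBE1, SLC16A7 and PGAM5) and 8 higher (PDK4, PYGL, PYGB, ENO3, PDHX, PDP1, LDHD and BSG), with a median of 0.13. In that fit 10 of 31 members were called lower and 3 higher, and 14.5% and 15.2% of all genes. PDK4, a further pyruvate dehydrogenase kinase, rose in H460 from 26.6 and 10.2 to 122 and 129 FPKM (2.84 ± 0.42, adjusted p = 0.0188). BSG, which brings lactate carriers to the membrane, rose from 293 and 319 to 576 and 856 FPKM (1.20 ± 0.28, adjusted p = 0.0410), and LDHD, a D-lactate dehydrogenase, from 1.38 and 2.02 to 5.58 and 7.37 FPKM (1.47 ± 0.29, adjusted p = 0.0300). SLC16A7, a carrier of lactate and pyruvate, fell from 9.85 and 8.29 to 2.40 and 2.45 FPKM (-1.55 ± 0.26, adjusted p = 0.0223). PGAM5, a mitochondrial phosphatase related to the mutases, fell from 85.9 and 76.7 to 39.8 and 19.4 FPKM (-1.51 ± 0.35, adjusted p = 0.0398).

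Among transcription factors of the pathway, MYC fell and MLXIPL rose in H460, and neither was called in A549 or H2023. MYC was at 495 and 299 FPKM with control siRNA and 35.2 and 70.1 FPKM with NRF2 siRNA in H460 (-2.93 ± 0.40, adjusted p = 0.0168). MLXIPL, which responds to carbohydrate, was at 1.29 and 0.689 against 7.45 and 3.14 FPKM (1.59 ± 0.40, adjusted p = 0.0488). Of 18 targets of hypoxia-inducible factor 1 outside glycolysis, the carbonic anhydrase gene CA12 was called lower in H460 (-2.29 ± 0.43, adjusted p = 0.0263), and the median of the list was 0.12, -0.09 and 0.15 in A549, H2023 and H460. In the average over lines 2 of 17 were called lower (CA12 and NDRG1) and 2 higher (BNIP3L and ERO1A), beside 14.5% and 15.2% of all genes. The part of MYC in the H460 values of the members was not tested.

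Of the pentose phosphate genes, PGD, which makes NADPH from 6-phosphogluconate, fell by 1.58 ± 0.17 in A549, 2.07 ± 0.25 in H2023 and 2.29 ± 0.24 in H460 on the log2 scale (adjusted p = 0.0263, 0.0417 and 0.0120). TALDO1, a transaldolase that returns sugars to glycolysis, fell by 1.53 ± 0.14, 1.52 ± 0.19 and 1.61 ± 0.24 (adjusted p = 0.0140, 0.0449 and 0.0188). TKT, the transketolase, fell in A549 and H460 (-1.80 ± 0.22 and -2.23 ± 0.31, adjusted p = 0.0386 and 0.0178) and had an adjusted p of 0.0728 in H2023. These changes were larger than those of GPI in each line, a difference between genes that was not tested.

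Of 18 proliferation genes, 12 were called lower in H460 by limma, beside 6.86% of all genes, and none in A549 or H2023. Their medians in H460, A549 and H2023 were -1.39, -0.23 and -0.35, and 18, 17 and 14 of them had a negative value. In the average over lines, the fit in which 10 members were called lower, 14 of the 18 were called lower, beside 14.5% of all genes. Their median there was -0.64. The 6 with the smallest p were PLK1, MCM4, CCNB1, BUB1, MCM5 and MCM7, whose log2 fold changes in H460 lay between -1.63 and -1.43. Their part, and that of the mitochondrial share, in the H460 results on PFKP, GPI, HK2 and PDK2 and in the members' average effects was not tested beyond the values given without mitochondrial transcripts.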

How the data were processed

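RNA-seq of 12 libraries was analysed. For each library the authors deposited FPKM per gene. Per the study's methods reads were aligned to hg19 with TopHat and quantified with Cufflinks, whereas the submitters' processing notes list STAR 2.5.3a, cutadapt 1.15, Cuffnorm, HTSeq and DESeq2, so which tool made the FPKM is not settled here. Tables of DESeq2 results per line (mean normalised count, log2 fold change, SE, Wald score, p-values) hold the authors' own comparisons and were not used. No counts were used, and 12710 values under 1e-06 were set to 0. Symbols were matched for 96.1% of identifiers, and positions are GENCODE genes lifted to GRCh37, not resolved into exons.

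Tests used limma 3.58.1 in R 4.3.3 on log2(FPKM + 1), which understates changes of low genes, with the prior variance following mean expression and Benjamini-Hochberg adjustment over all genes. Genes entered a test if 2 or more of a line's 4 libraries reached 1 FPKM, in the fits of 12 libraries if this held in every line, and between siRNAs if 2 or more of 6 did. The fit was tested on simulated data. The members and lists were chosen with earlier results of these data known. All members past a threshold are named with values, GPI always, and of the other lists at most 6 genes called in a line by smallest p, apart from results on the transcription factors and the pentose phosphate genes that are not reported here. Alternatives were another pseudocount (0.1), filters, scalings, no variance trend, a replicate block, a weight per line, single pairs of lines, a fit of all 12 libraries, and each library left out. Python 3.11.15, pandas 2.3.3 and matplotlib 3.10.9 were used.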

Additional observations from a re-analysis of the deposited data

Results flagged for a closer look

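The effect of NRF2 siRNA on PFKP differed between A549 and H460 by the test of that difference in the fit of all 12 libraries (1.06 ± 0.23 on the log2 scale, adjusted p = 0.0440). PFKP was lower in both NRF2 siRNA libraries of both lines, by 0.20 ± 0.14 in A549 and 1.25 ± 0.21 in H460. The difference kept its direction in all 20 alternatives and lost the call in 13 of them, with values from 0.84 to 1.16 and adjusted p from 0.0297 to 0.170. Without mitochondrial transcripts it was 0.84 (adjusted p = 0.0826). Medium and RNA preparation differed between these lines and cannot be told apart from the line.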

How the results depend on the processing

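With no filter on low values 0 members were called in H460, lower or higher, and no gene of 29735 passed. In the fit of all 12 libraries 1 member was called lower and 1 higher in H2023, where 748 of 14059 genes passed beside 128 in the main fit. In H460 13 and 2 were called (adding HK1, PFKFB3, ALDOA, TPI1, GAPDH, PGK1, LDHB, SLC16A1, PDHA1 and PGM2 lower and PGM1 higher), where 4585 of 13446 genes passed beside 1879. Between siRNA 28 and siRNA 30, 1 was called lower and 1 higher, where 1449 of 15716 genes passed beside 0. With the replicate block 2 members were called lower (SLC2A1 and GPI, adjusted p = 0.0279 and 0.0429) and 1 higher (PFKM) in H2023, where 711 genes passed in all. In H460 8 were called lower (adding HK1, PFKFB3, PFKFB4, PGK1 and PGM2), where 3177 genes passed in all. Same-numbered libraries deviated together with a correlation of -0.03 for A549, 0.31 for H2023 and 0.16 for H460. The main fits did not pair the numbers, and these correlations do not settle whether samples were paired. Without mitochondrial transcripts 2 members were called higher in H460 and the members' median was -0.30. With each library left out in turn, which assumes that a lone library varies like the other group, members called lower ranged from 0 to 3 in H2023, 0 to 8 in H460 and 6 to 11 for the average effect, and members called higher from 0 to 1 in H2023, 0 to 1 in H460 and 2 to 4 for the average. Calls gained without an NRF2 siRNA library were, in H2023, SLC2A1 and PGK1 without siRNA 28 and SLC2A1, HK1, GPI and PFKM without siRNA 30. In H460 they were PFKFB3, PGK1, LDHB, PDHA1 and PGM2 without siRNA 28 and HK1 without siRNA 30. Calls over all genes also rose in each of these fits, whose spread leaves out the difference between siRNAs. For the average effect the fewest members were called lower without control library 0 of A549, H2023 or H460. The members' median ranged from -0.10 to 0.055 in A549, -0.19 to -0.023 in H2023 and -0.66 to -0.14 in H460. The test between lines called 0 to 1 members, which were PFKP without H2023 NRF2 siRNA library 0 and PDK2 without H460 NRF2 siRNA library 1. Without H460 control library 0 or 1, 0 and 5 genes passed in all. No called value reversed under any alternative, and the promoter counts of 5 and 20 members were the same with the 250 bases before the start alone. The other alternatives kept these counts within 1.5 times. The cause of each change was not tested. Depth per library is known only relative to others of its line, and 2 libraries per group limit every test.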

Other observations

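In H460 library 0 stood above library 1 in both groups for 19 of 32 members tested, or 59.4%, beside 29.3% of all genes tested. In H2023 this held for 17 of 31 members, or 54.8%, beside 32.7%, and in A549 for 14 of 31, or 45.2%, beside 41.8%. With control siRNA the H460 members were, among others, SLC2A3 at 96.8 and 25.8 FPKM, SLC2A1 at 297 and 143 FPKM, PDK1 at 15.9 and 7.58 FPKM and PFKFB4 at 8.83 and 3.90 FPKM. With NRF2 siRNA the same genes were at 65.8 and 14.2, 179 and 97.0, 9.86 and 6.32, and 3.39 and 1.80 FPKM, where the library number also marks the siRNA and the pair cannot be told apart. The median difference, library 0 minus library 1, was 0.24 on the log2 scale for the members and 0.66 for the 17 tested targets of hypoxia-inducible factor 1 outside glycolysis in the H460 control libraries, beside 0.04 for all genes. In the NRF2 siRNA libraries it was 0.27 for the members and -0.05 for those targets.

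A name pattern found 110 processed pseudogenes of 14 members in the files. Their summed FPKM exceeded 5% of the parent gene for HK2 and SLC2A3 in at least 1 library, up to 8.1% and 5.35%, where the parent gene was low.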
